A study of Mus musculus with 7 samples.

Results

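The midbrain-hindbrain organiser genes *Otx2*, *Gbx2*, *Fgf8*, *Wnt1*, *En1*, *En2*, *Lmx1a* and *Lmx1b* were examined for what marked them in P7 cerebellar granule neuron progenitors (GNPs). These 8 of 21853 protein-coding genes were taken as a fixed list, chosen with earlier results of these data known. Every peak centred inside the gene body or up to 50 kb beyond either end was counted (mm10, GENCODE M21). Their windows held 26 of the 31400 H3K27ac peaks, 0 of the 1946 Chd7 peaks of WT GNPs and 0 of the 96 Chd7 peaks of *Chd7*-deficient GNPs. They also held 14 of the 17030 Top2b peaks of WT cerebellar granule neurons (CGNs) and 13 of the 21505 Top2b peaks of *Chd7*-deficient CGNs.

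Chromatin-immunoprecipitation coupled to sequencing (ChIP-seq) recovers DNA bound by a chromatin protein or carrying a histone mark, and peaks are places where the recovered fragments pile up over background. The mice, labelled C57BL/6 and given in the study's methods as C57BL/6N, were 7 days old; GNPs were purified on a Percoll gradient and used fresh, whereas CGNs were GNPs held for 48 h in culture medium lacking SHH, and no treatment was given. The samples labelled Chd7 KO are given in the study as *Atoh1-Cre::Chd7* f/f, in which Cre acts in the upper rhombic lip and its granule cell descendants, so loss of *Chd7* begins there and not in the earlier isthmus. H3K27ac was measured in WT GNPs only, Chd7 in GNPs of both genotypes and Top2b in CGNs of both genotypes, with 1 library per condition, so that no difference between libraries could be set against a spread between animals and no test was run.

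The isthmic organiser forms at the border between *Otx2*-expressing midbrain and *Gbx2*-expressing anterior hindbrain, where it secretes Fgf8 and Wnt1 and patterns the midbrain and the cerebellum. *En1*, *En2* and *Lmx1b* maintain this signalling centre, and *Lmx1a* acts in the roof plate and the rhombic lip, from which granule cells arise. Chd7 is a nucleosome remodeller mutated in CHARGE syndrome, which in the early embryo acts on *Otx2*, *Gbx2* and *Fgf8* at the isthmus. H3K27ac marks active promoters and enhancers, and Top2b is the DNA topoisomerase II of postmitotic neurons.

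Promoter sequences are shown for the genes whose starts separate into marked and unmarked. They run from 250 bases before a RefSeq start site (GRCm38.p6, the assembly of mm10) to the base before the first exon annotated in GENCODE M21, at most up to the start itself, and 6 of the 8 genes were found in the table of promoters. Capitals mark matches on either strand to the homeodomain core TAATTA, to the E-box with the letters CAGCTG and to the GC box, written GGGCGG. The core bound by Otx and bicoid proteins (GGATTA) was searched in the same way and has no match in the stretches printed. The first 3 sequences belong to starts in or beside acetylated chromatin, namely *Otx2*, *En1* and *Cnpy1*, the neighbour of *En2* that carried the strongest H3K27ac peak of the *En2* window. The last 2 belong to starts with no H3K27ac peak.
*Otx2*, chr14:48667645-48667894, minus strand: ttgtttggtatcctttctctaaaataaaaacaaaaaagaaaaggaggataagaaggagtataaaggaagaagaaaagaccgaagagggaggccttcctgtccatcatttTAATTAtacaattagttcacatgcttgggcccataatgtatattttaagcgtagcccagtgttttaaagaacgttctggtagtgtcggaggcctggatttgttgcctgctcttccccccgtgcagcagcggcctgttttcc
*En1*, chr1:120602237-120602417, plus strand: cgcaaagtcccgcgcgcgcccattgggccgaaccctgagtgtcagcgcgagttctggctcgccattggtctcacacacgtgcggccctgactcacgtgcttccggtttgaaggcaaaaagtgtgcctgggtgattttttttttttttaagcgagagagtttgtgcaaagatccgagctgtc
*Cnpy1*, chr5:28210364-28210418, minus strand: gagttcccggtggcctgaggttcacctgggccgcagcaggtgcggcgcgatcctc
*Gbx2*, chr1:89931180-89931426, minus strand: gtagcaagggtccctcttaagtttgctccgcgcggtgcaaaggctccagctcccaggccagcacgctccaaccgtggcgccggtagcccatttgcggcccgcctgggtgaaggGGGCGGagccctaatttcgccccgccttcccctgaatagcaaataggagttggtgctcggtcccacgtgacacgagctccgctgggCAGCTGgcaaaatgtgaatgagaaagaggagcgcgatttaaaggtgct
*Wnt1*, chr15:98789607-98789856, plus strand: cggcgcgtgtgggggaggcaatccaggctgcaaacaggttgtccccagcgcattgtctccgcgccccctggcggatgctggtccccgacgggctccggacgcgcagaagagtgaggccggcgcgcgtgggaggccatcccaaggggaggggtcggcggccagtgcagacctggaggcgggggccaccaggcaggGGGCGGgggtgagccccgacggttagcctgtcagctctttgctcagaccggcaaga

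Among the 6 genes with a promoter found, the unacetylated *Gbx2*, *Wnt1* and *Lmx1b* promoters held more CpG than the acetylated *Otx2* promoters. They held less than the acetylated *Cnpy1* promoter, and the unacetylated *Lmx1a* promoter held less than the most CpG-rich acetylated *Otx2* promoter. Over the 300 bases from 250 before to 50 after the start, the sequence held 27 CpG dinucleotides at *Gbx2*, 26 at *Wnt1*, 24 at *Lmx1b* and 12 at *Lmx1a*, whereas the median was 7 over all 32851 promoters and 23 over the 9900 that overlapped an H3K27ac peak. The *En1* promoter held 23 CpG, the acetylated *Cnpy1* promoter held 34 and the unacetylated *Cnpy1* promoter held 6. The 3 acetylated *Otx2* promoters (4 are annotated) held 6, 8 and 16 CpG, and those with 6 and 8 overlap each other. The unacetylated *Otx2* promoter held 11. The *Otx2* promoter at chr14:48665060-48665359, whose sequence lies in annotated exons and is not printed, held 3 matches to TAATTA and 1 to GGATTA. Among all promoters of this length, 5.29% held TAATTA and 7.06% held GGATTA. The E-box CAGCTG was present at *Gbx2* and *En1* and in 16.3% of all promoters, and GGGCGG at *Gbx2*, *Lmx1a*, *Wnt1* and *Cnpy1* and in 35.7% of all. A match gives letters only and not a bound factor.

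The 8 genes fell into marked and unmarked loci. *Otx2*, *En1* and *En2* carried an H3K27ac peak within 1 kb of a start site, whereas *Gbx2*, *Fgf8*, *Lmx1a*, *Lmx1b* and *Wnt1* did not; over all protein-coding genes, 45.7% had such a peak. Within 250 bp of a start only *Otx2* and *En2* had a peak, that of *En1* lying farther downstream. Counting whole windows, 6 of the 8 genes had at least 1 H3K27ac peak, against 73.5% of all protein-coding genes. Of the 26 peaks, 20 lay nearest to a start site of *Otx2* (6), *En1* (8), *En2* (5) or *Lmx1a* (1), and 6 lay nearest to a start of another gene. The fold enrichment over local background ranged from 2.26 to 22.1 in the windows with a median of 4.36, and the median over all 31400 peaks was 4.35. For the 20 peaks nearest to a start of the 8 genes the median was 3.98, and for the other 6 it was 7.86. A low value can come from a mark in few cells or from a weak mark in all of them, which peak tables of a bulk sample cannot tell apart.

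**Figure D1:**
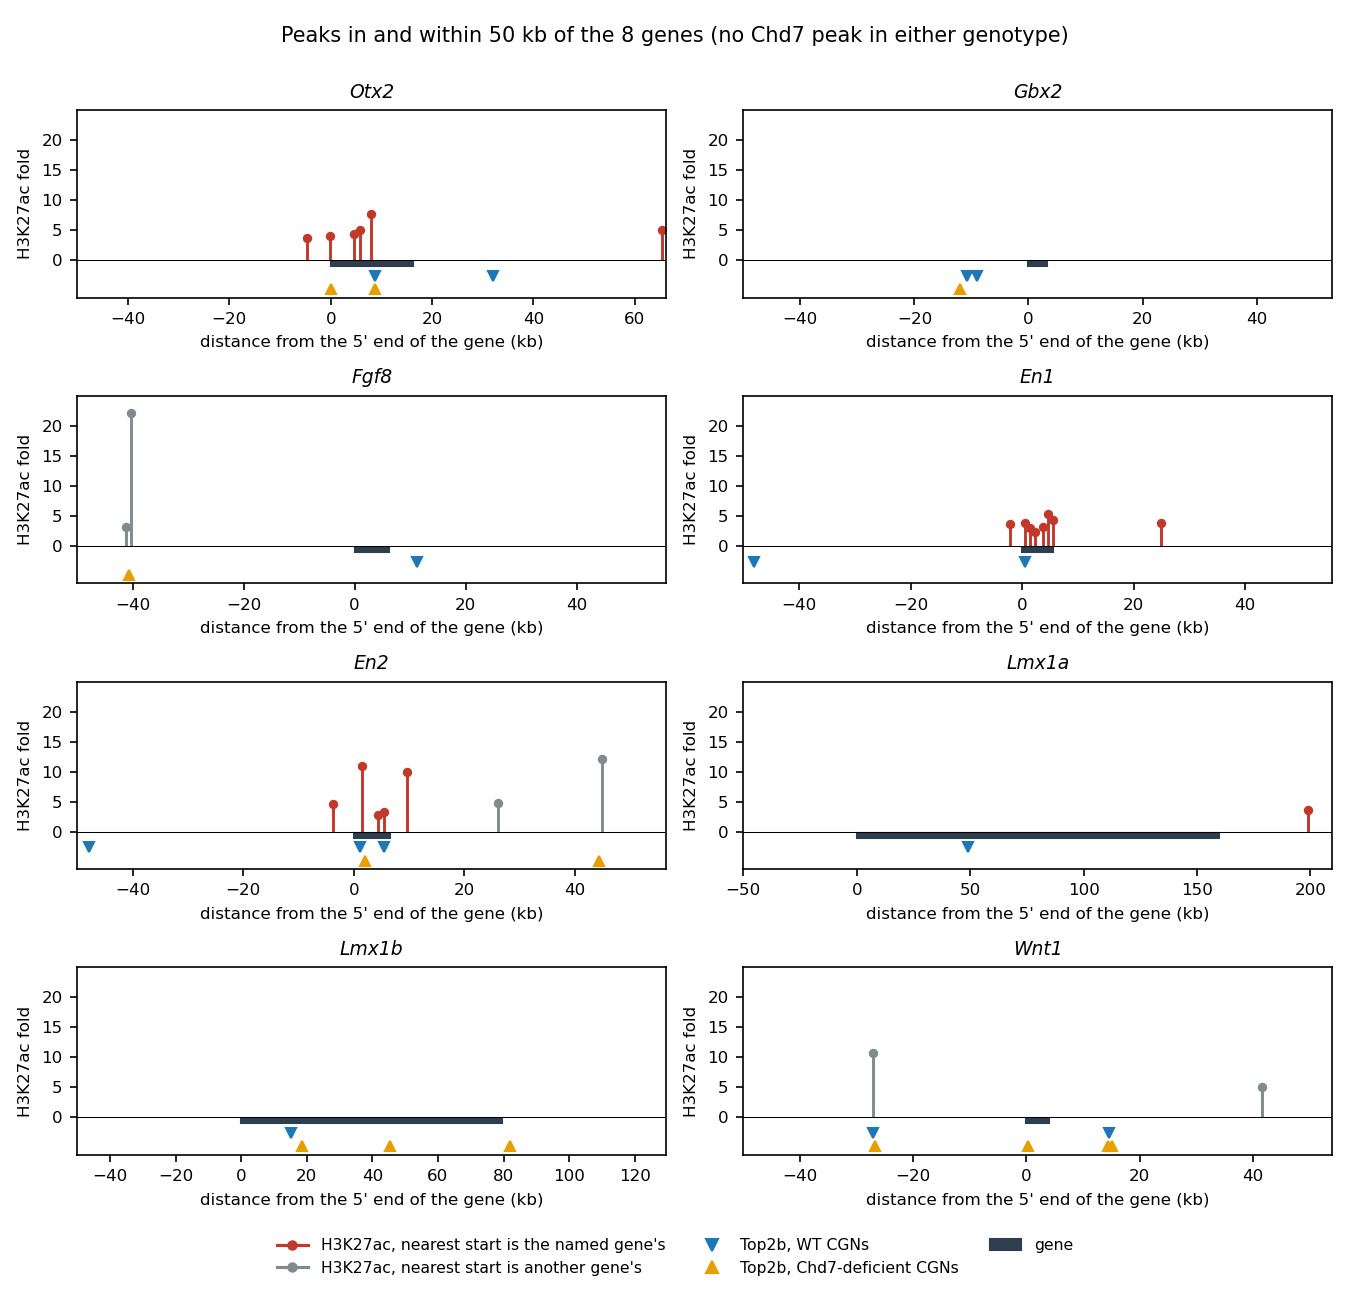
H3K27ac fold enrichment (y axis) of each peak in the windows of the 8 genes against distance from the 5' end of the gene in kb, in the direction of transcription, with Top2b peaks of WT and *Chd7*-deficient CGNs as triangles below and the gene as a dark bar. Red stems, nearest to a start of the named gene, stand at *Otx2*, *En1* and *En2* and as a single stem far downstream of *Lmx1a*, while *Gbx2* and *Lmx1b* have none.

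*Otx2*, the homeodomain factor of the forebrain and midbrain (ENSMUSG00000021848.16, chr14:48657677-48673819, minus strand), had 6 H3K27ac peaks, all nearest to its own start sites. The widest, chr14:48664380-48667252, spanned 2873 bp over an internal promoter and an intron, reached a pileup of 48.94 at 7.73-fold over background (−log10 q 26.2) and was wider than 97.1% of all H3K27ac peaks. A peak of 5.02-fold lay at chr14:48667617-48668281, on the promoter printed above. Another, of 4.09-fold, covered the most upstream start (chr14:48673355-48674589), where the non-coding *Otx2os1* also has an exon. The remaining peaks had 4.31-fold in an intron, 3.65-fold at 4.70 kb upstream, in an intron of *Otx2os1*, and 5.02-fold at 54.4 kb downstream of the nearest start, outside any gene. Because *Otx2os1* overlaps *Otx2*, the upstream peaks cannot be given to either gene alone.

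*Gbx2*, the homeodomain factor of the anterior hindbrain (ENSMUSG00000034486.8, chr1:89927956-89931179, minus strand), had 0 H3K27ac peaks in its window. The nearest in the table (chr1:90076350-90077296, 5.66-fold) was 146 kb from its start. On the deposited calls, the pair of factors that set the isthmic border therefore stood apart, with 6 peaks at *Otx2* and 0 at *Gbx2*.

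Neither secreted signal had an H3K27ac peak of its own. *Fgf8* (ENSMUSG00000025219.13, chr19:45736798-45742915, minus strand) had 2 peaks in its window, both at the start of *Mgea5*, which encodes the enzyme removing O-GlcNAc from proteins. Their fold enrichments were 22.1 (chr19:45782597-45783703, 40.2 kb from an *Fgf8* start) and 3.14 (chr19:45783885-45784429). *Wnt1* (ENSMUSG00000022997.9, chr15:98789857-98793837, plus strand) also had 2 peaks. The 10.7-fold peak covered the start of *Arf3*, a small GTPase gene, 27.2 kb away (chr15:98762201-98763191). The 5.03-fold peak covered the start of *Prkag1*, a subunit of AMP-activated kinase, and the 3' end of *Kmt2d*, a histone methyltransferase (chr15:98830920-98832183). *Npm3* beside *Fgf8*, and *Wnt10b* and *Ddn* beside *Wnt1*, had no H3K27ac peak at their starts either. The signal of the *Fgf8* and *Wnt1* windows came entirely from peaks at the starts of neighbouring genes, so a window sum taken alone would rank *Fgf8* (percentile 77.2 of all protein-coding genes) above *Otx2* (percentile 73.0). With width times fold as the signal *Otx2* stood at 77.6 and *Fgf8* at 70.2.

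The engrailed genes, homeodomain factors of the midbrain and the cerebellar primordium, were both marked but differed in level. *En2* (ENSMUSG00000039095.8, chr5:28165694-28172166, plus strand) had 7 peaks. The peak over its start and body, chr5:28164835-28169566, was 4732 bp wide, wider than 99.3% of all H3K27ac peaks, with a pileup of 78.12 at 11.0-fold (−log10 q 53.9). Peaks of 4.57-fold lay 3.80 kb upstream and of 9.96-fold 9.54 kb downstream of the start (chr5:28174313-28176159), and peaks of 2.73-fold and 3.30-fold lay in its coding exon and its UTR. The other 2 belonged by nearest start to *Cnpy1*, a regulator of Fgf signalling known from the zebrafish isthmus. They had 4.79-fold between the genes and 12.0-fold at the *Cnpy1* start printed above, with a pileup of 107.29 (chr5:28209193-28212128).

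*En1* (ENSMUSG00000058665.8, chr1:120602418-120607992, plus strand) had 8 peaks, which fell to 5 at a −log10 q of at least 5, where *Otx2* and *En2* had 6 each. They ranged from 2.26-fold to 5.30-fold with a median of 3.71, below the median of 4.35 over all H3K27ac peaks, and from 307 to 1029 bp in width. The strongest lay in the coding exon near the 3' end (chr1:120606757-120607479, pileup 49.88), not at the start, where a 400-bp peak of 3.87-fold began within the 5' UTR (chr1:120602778-120603177). The signal, the sum of peak width times pileup per 100 kb of window, was 903255 at *En2* and 116982 at *En1*, at percentiles 96.7 and 57.6 of all protein-coding genes.

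The LIM-homeodomain genes were almost bare. *Lmx1a* (ENSMUSG00000026686.14, chr1:167689237-167848741, plus strand) had 1 peak of 3.57-fold (chr1:167887874-167888545, −log10 q 5.80), 199 kb from its nearest start and downstream of the gene. *Lmx1b* (ENSMUSG00000038765.13, chr2:33560965-33640511, minus strand) had 0 peaks, and the nearest, of 2.54-fold, lay 114 kb from a start (chr2:33754468-33754860). In order of H3K27ac signal in the 50-kb windows the genes stood as *En2*, *Fgf8*, *Otx2*, *Wnt1*, *En1*, *Lmx1a* and then *Gbx2* and *Lmx1b*, both at 0 like 26.5% of all protein-coding genes. With 10 kb on each side the order turned, with *En2* at percentile 98.6, *Otx2* at 89.6, *En1* at 83.3 and the other 5 genes without signal. With 1 library there is no replicate spread by which to judge neighbours in this order. When neighbouring H3K27ac peaks were stitched and ranked by width times pileup, 613 of 17539 regions lay above the point at which the ranked curve reaches a slope of 1, and such regions are called super-enhancers. *En2* lay in such a region (rank 544, 5 peaks over 14.744 kb), *Otx2* (rank 2154, 5 peaks over 14.35 kb) and *En1* (rank 4839, 7 peaks over 8.378 kb) did not, and 4.19% of all protein-coding genes overlapped a super-enhancer. *En2* left this set when peaks over start sites were taken out before the stitching distance.

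No Chd7 peak of WT GNPs lay in any of the 8 windows, whereas 14.2% of all protein-coding genes had at least 1. None of the 26 H3K27ac peaks overlapped a Chd7 peak (0 of 26, 95% Wilson interval 0 to 12.9%), against 4.98% of all H3K27ac peaks. For the 20 peaks nearest to starts of the 8 genes the interval was 0 to 16.1%. The overall share lies within both intervals. These intervals cover counting only. Among protein-coding genes with H3K27ac at the start, as at *Otx2*, *En1* and *En2*, 21.3% had a Chd7 peak in the window, and among those with 6 to 8 H3K27ac peaks in the window, as at these 3 genes, 25.2% had. The count of 0 of 3 sits beside these shares without being distinguishable from them.

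A missing call is not a missing protein. Over the Chd7 peaks called in WT GNPs, the lowest pileup was 12 fragments, the lowest −log10 q 1.34 and the lowest local background 2.60 fragments. These are separate minima and need not belong to the same peak. The local background at called peaks ranged up to 351 fragments, so 12 fragments is not a fixed limit of detection. Binding too weak to be called was not listed. The share of H3K27ac peaks at Chd7 rose with H3K27ac fold, from 0.627% in decile 1, the weakest peaks, to 20.5% in decile 10. Of the 20 peaks nearest to starts of the 8 genes, none was in decile 10 and 2, both at *En2*, were in decile 9 (8.43-fold to 12.6-fold), where the share was 10.2%. The 3 weakest of the 26, at *En1* and *En2*, were in decile 1.

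**Figure D2:**
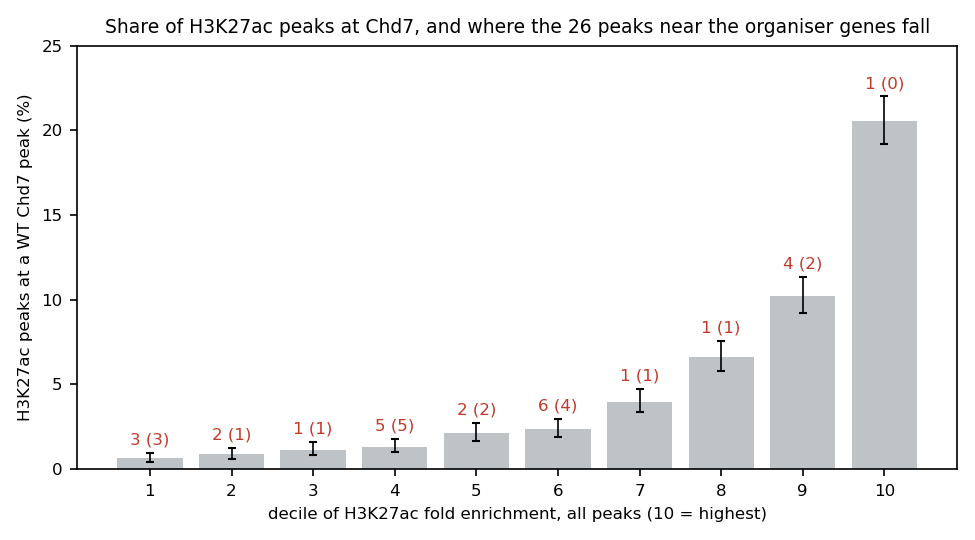
Share of H3K27ac peaks that overlap a WT Chd7 peak (y axis, %) by decile of H3K27ac fold enrichment over all 31400 peaks (x axis), with 95% Wilson intervals for counting as bars and, in red, the number of peaks in the 8 windows and in brackets those nearest to a start of the 8 genes. The share rises to 20.5% in decile 10, where 1 of the 26 peaks lies, the *Mgea5* peak beside *Fgf8*.

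The nearest WT Chd7 peak lay between 85.9 kb and 1738 kb from a start of the 8 genes, with a median of 542 kb, against 430 kb over all protein-coding genes and 291 kb over those with H3K27ac at the start. *En2* was the closest. Its nearest Chd7 peak (chr5:28251439-28251742, 20 fragments, 3.22-fold, −log10 q 2.65) lay 85.9 kb from its start and 5.78 kb upstream of *Cnpy1*, within an H3K27ac peak of 15.4-fold. On the other side a Chd7 peak of 3.25-fold (chr5:28071296-28071915) lay in *Insig1*, a gene of sterol sensing, 94.1 kb from *En2*, also in an H3K27ac peak of 30.9-fold. The 12.0-fold peak at the *Cnpy1* start and the 11.0-fold peak at *En2* lay between them without a Chd7 call.

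For the other genes the nearest Chd7 peak was at 326 kb for *Lmx1b*, 350 kb for *Gbx2*, 405 kb for *Lmx1a*, 680 kb for *Fgf8*, 1005 kb for *Wnt1*, 1388 kb for *Otx2* and 1738 kb for *En1*. *Otx2* and *En1*, each with at least 6 acetylated peaks, thus lay farthest from Chd7 among the 8, beyond 82.6% and 87.0% of all protein-coding genes. The peak nearest to *En1* was in *Gli2* (4.90-fold), an effector of SHH signalling, and that nearest to *Fgf8* had *Sufu*, an inhibitor of the same pathway, as its nearest start (4.30-fold, −log10 q 8.09). In *Chd7*-deficient GNPs, 0 of the 8 genes had a Chd7 peak in the window, where 0.206% of all protein-coding genes had. The comparison of genotypes therefore holds no Chd7 call at these genes to be lost.

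**Figure D3:**
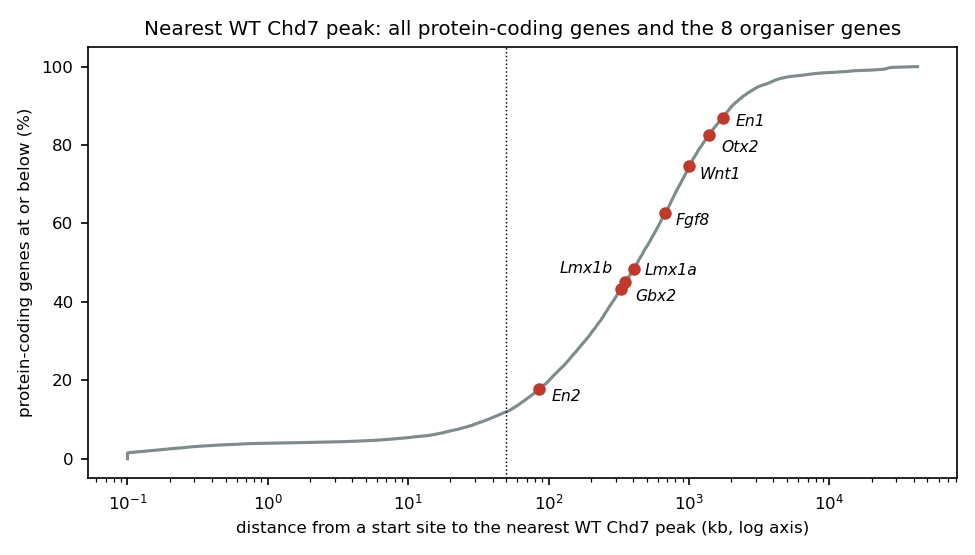
Distance from a start site to the nearest WT Chd7 peak (x axis, kb, log scale, values under 0.1 drawn at 0.1) against the share of protein-coding genes at or below it (y axis, %), with the 8 genes as red points and the 50-kb limit dotted. All 8 points lie right of the limit, *En2* nearest at 85.9 kb and *En1* farthest at 1738 kb.

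Some related genes had a Chd7 call in the same library. Of 16 other transcriptional regulators of the isthmus, 4 had a WT Chd7 peak in the window. These were *Tle4* (3.26-fold) and *Pbx3* (3.77-fold), each with the peak within 0.3 kb of a start and at H3K27ac, and *Hes1* (3.05-fold) and *Hes3* (3.71-fold), both away from H3K27ac. Of 15 genes of isthmic Fgf signalling, 3 had one, namely the feedback inhibitor *Spry1* (4.04-fold, 0.200 kb from its start), the Ets factor *Etv5* (3.89-fold) and *Cnpy1*. Of 14 genes of Wnt signalling, 3 had one, the receptors *Fzd3* (5.25-fold at its start) and *Fzd6* (4.34-fold) and the effector *Tcf7l2* (4.66-fold). The *Fzd6* and *Tcf7l2* peaks lay 36.0 and 53.1 kb from a start and away from H3K27ac. Of 13 CHARGE-related genes found, *Chd7* itself had 3 Chd7 peaks, the strongest of 5.26-fold, and *Chd8* had 1 of 4.83-fold, 47.3 kb upstream of a start. Of 9 roof plate and rhombic lip genes, *Pax6* had 1. The shares of these lists bracket the 14.2% of all protein-coding genes.

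H3K27ac at the start was present at 7 of the 16 transcriptional regulators, 8 of the 15 Fgf genes and 5 of the 14 Wnt genes. It was also present at 5 of the 13 CHARGE-related genes and 3 of the 9 roof plate and rhombic lip genes. This compares with 3 of the 8 organiser genes and 45.7% of all protein-coding genes. By contrast, 11 of 12 marker genes of GNPs had H3K27ac at the start and 10 of 12 had a Chd7 peak, all but *Atoh1* and *Ccnd1*. This marker list was chosen with earlier results of these data known, and the paper names *Neurod1* among genes bound by Chd7. The markers had a median signal percentile of 99.0, against 59.8 for the organiser genes. The latter includes *Fgf8* and *Wnt1*, whose window signal came from starts of neighbouring genes. *En2*, at 903255, stood below most of these markers, of which *Zic1* had 8459230, but above *Ccnd2*, *Gli2*, *Atoh1* and *Ccnd1*. *Otx2* (percentile 73.0) also stood above *Atoh1* (69.1) and *Ccnd1* (54.8). *Atoh1* had no WT Chd7 peak and 1 in *Chd7*-deficient GNPs.

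**Figure D4:**
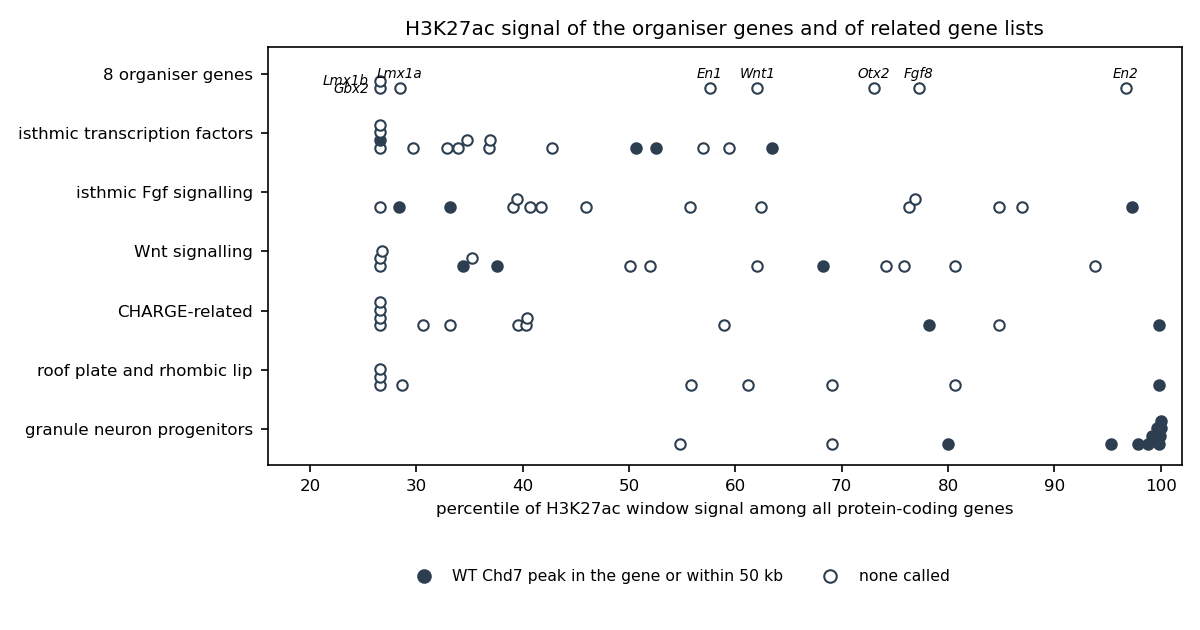
Percentile of H3K27ac window signal among all protein-coding genes (x axis) for each gene of the lists on the y axis, filled where a WT Chd7 peak lies in the gene or within 50 kb. All 8 organiser genes are open circles, *En2* at 96.7 and *Gbx2* and *Lmx1b* at 26.5, the percentile of genes with no signal. Most markers of granule neuron progenitors lie at the right, with 10 of 12 filled, but *Gli2* is at 80.0, *Atoh1* at 69.1 and *Ccnd1* at 54.8.

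Start sites of other cell types' markers carried H3K27ac at 0 of 4 Purkinje, 3 of 4 interneuron, 3 of 4 glial, 2 of 5 oligodendrocyte, 1 of 3 microglial, 0 of 3 endothelial, 1 of 3 unipolar brush cell and 0 of 3 choroid plexus genes, against the 45.7% of all protein-coding genes. A WT Chd7 peak lay in the window of 1 of 5 oligodendrocyte (*Pdgfra*, 4.80-fold), 1 of 3 microglial (*Aif1*, 10.6-fold) and 2 of 3 endothelial genes (*Pecam1*, 2.79-fold, and *Cldn5*, 4.06-fold). None of these peaks was at a start of the named gene. They lay 18.0 kb from a start of *Pdgfra*, 7.60 kb at *Aif1*, 38.3 kb at *Pecam1* and 16.7 kb at *Cldn5*. Of these genes only *Pdgfra* had H3K27ac at its start. The other cell type lists had none, and 14.2% of all protein-coding genes had one. The part of such cells in the *Otx2*, *En1* and *En2* peaks was not tested.

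Top2b was called in CGNs, in which H3K27ac and Chd7 were not measured, so its overlap with H3K27ac joins cells of different stages. All 8 genes had at least 1 WT Top2b peak in the window, where 62.1% of all protein-coding genes had, and 6 of the 8 had at least 1 in *Chd7*-deficient CGNs, where 70.9% had. *En1* and *Lmx1a* were those with none, which depended on the window. With 100 kb on each side, *En1* had 2 *Chd7*-deficient peaks against 5 in WT, and *Lmx1a* had 5 against 1. At *Otx2*, a WT peak (chr14:48664979-48665374) and a *Chd7*-deficient peak (chr14:48664844-48665243) overlapped at the internal promoter inside the 2873-bp H3K27ac peak. A second peak of *Chd7*-deficient CGNs lay at the most upstream start (chr14:48673617-48674016), and a second WT peak lay 21.1 kb from the nearest start. At *En1*, the WT peak chr1:120602817-120603212 lay 0.596 kb from the start inside its H3K27ac peak, and no *Chd7*-deficient peak was called in the window. At *En2*, 2 WT peaks in the gene and 1 *Chd7*-deficient peak did not overlap each other, and a second *Chd7*-deficient peak lay at the *Cnpy1* start.

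At the bare genes Top2b peaks lay away from starts, with the exception of *Wnt1*. *Gbx2* had WT peaks 8.95 and 10.8 kb upstream of its start and a *Chd7*-deficient peak 12.0 kb upstream. *Lmx1a* had 1 WT peak in an intron, and *Lmx1b* had 1 WT peak against 3 *Chd7*-deficient peaks. *Fgf8* had a WT peak 10.9 kb downstream of a start, and its *Chd7*-deficient peak was at *Mgea5*. *Wnt1* had 2 WT peaks, at *Arf3* and *Ddn*, against 4 *Chd7*-deficient peaks, of which 1 lay 0.290 kb from the *Wnt1* start (chr15:98789948-98790347), where no H3K27ac peak was called in GNPs.

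Over the 8 windows, 2 of 14 WT Top2b peaks overlapped a *Chd7*-deficient peak and 2 of 13 the other way, at *Otx2* and in *Ddn* beside *Wnt1*. Over all peaks, 16.8% of WT peaks overlapped a *Chd7*-deficient peak and 13.3% the other way, so that most calls throughout the genome had no overlapping call in the other library. Of the WT peaks in the windows 5 of 14 lay at H3K27ac, against 17.4% of all WT peaks. Of the *Chd7*-deficient peaks 6 of 13 did, against 26.6% of all. Those in the *Fgf8* and *Wnt1* windows lay at the starts of *Mgea5* and *Arf3*, and 1 in the *En2* window lay at the *Cnpy1* start. The Top2b peaks are listed without a height, with widths of 396 bp in WT and 400 bp in *Chd7*-deficient CGNs, so that no gain or loss could be sized.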

How the data were processed

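Peak tables of 5 ChIP-seq libraries from P7 mice (C57BL/6 per the labels, C57BL/6N in the study's methods) were analysed, with 1 library per condition. Input libraries were not analysed here. The authors trimmed paired reads with Trim Galore, mapped them to mm10 with Bowtie 1.0.0 keeping single alignments, called GNP peaks with MACS2 defaults and Top2b peaks with HOMER. The MACS2 version used for ChIP-seq, its control and the exact read number of each library are not given in the sources used here. The pileup is the deposited coverage signal at the summit. The H3K27ac pileups named here are fractional, unlike the Chd7 pileups, so they are not whole counts of fragments and the scales were not compared. The fold, −log10 p and −log10 q columns, deposited by the authors without decimal points, were divided by 100000. The local background was worked out from pileup and fold and was not read separately. −log10 p recomputed from pileup and this background differed by at most 0.0026, with 31348 of the 31400 H3K27ac peaks compared. Top2b tables hold positions only, with starts read as 0-based.

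Peaks were counted by centre in GENCODE M21 genes plus 50 kb, and overlap meant 1 bp or more. Start sites were those of protein-coding transcripts. Lengths, percentiles and 95% Wilson intervals were computed in Python 3.11.15 with numpy 2.4.6, and figures with matplotlib 3.10.9. Counting was tested on simulated data and matched a direct count in 500 of 500 windows. Named were the 8 genes, genes with a start or body at their peaks, and list genes with a Chd7 peak. The members and lists were chosen with earlier results of these data known. *Anos1* of the CHARGE-related list was not found. Alternatives changed window, peak threshold, overlap, start-site distance, signal and the stitching distance.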

Additional observations from a re-analysis of the deposited data

How the results depend on the processing

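The window set the counts. H3K27ac peaks at the 8 genes numbered 26 with 50 kb, 17 with 10 kb, 12 in gene bodies and 41 with 100 kb. Top2b peaks numbered 14, 8, 6 and 27 in WT CGNs and 13, 7, 6 and 32 in *Chd7*-deficient CGNs. WT Chd7 peaks numbered 0 up to 50 kb, 2 with 100 kb and 3 with 200 kb, a window chosen after seeing the data; all 3 were beside *En2*. The median signal percentile of the 8 genes was 59.8, 59.1 with width times fold and 41.3 with 10 kb, where *Otx2* (73.0 to 89.6), *En1* (57.6 to 83.3) and *En2* (96.7 to 98.6) rose while *Fgf8* and *Wnt1* fell to the level of genes without signal, 41.3. Within 250 bp of a start 2 genes had an H3K27ac peak in place of 3, without *En1*. *En1* had 8 H3K27ac peaks against 7 at *En2* with 50 kb and 8 against 15 with 100 kb. *En2* was 1 gene in a super-enhancer, and 0 remained without start-site peaks. Over the 8 genes together, 21 alternatives left the value within 1.5 times, the 250-bp start-site distance included, and 14 were counted as moved. Gene by gene, 159 were counted as unchanged and 57 as moved. Some percentiles were counted as moved at changes of less than 1.5 times. Among them were the median, from 59.8 to 59.1, and *En2*, from 96.7 to 97.1, with width times fold. Among the 21 were 0 Chd7 peaks of *Chd7*-deficient GNPs at every window and any overlap in place of the centre. Also among them was −log10 q of at least 5, which kept 22 of 26 H3K27ac peaks. A test between libraries could not be made with 1 library per condition, and no replicate could be left out. No paired analysis was possible because each condition has 1 library. The lowest pileup of a Chd7 call was 12 fragments, and binding too weak to be called cannot be seen.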
